A study of Mus musculus with 6 samples.

Results

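The replication-dependent histone genes encode the core histones H2A, H2B, H3 and H4 that package newly made DNA. The transcriptomes described here came from mouse liver sinusoidal endothelial cells (LSECs), the cells that line the liver's sinusoids. They were taken with anti-CD146 beads from mice that carried liver metastases of HCT116, an established human colorectal cancer cell line, and were cultured for 24 h before RNA was extracted. There were 3 libraries from bevacizumab-sensitive xenografts (sensitive) and 3 from bevacizumab-resistant xenografts (resistant). Bevacizumab is an antibody against human VEGF-A. In the study, HCT116 xenografts acquired resistance under prolonged dosing, and other mice were randomized to a vehicle group that received IgG. The paper does not say what the mice behind the sensitive libraries received. Resistance and the dosing that led to it cannot be told apart. The study lists male BALB/c-Nu mice, obtained at a few weeks of age, as its only immunodeficient animals and does not repeat the strain for these xenografts. The number of animals behind each library is not given in the sources used here, so p-values measure the spread between libraries, which may in part be technical. The members were the genes whose symbol began with H2ac, H2bc, H3c or H4c followed by a digit, since no symbol in the table followed the older Hist naming. This gave 60 of 60832 listed genes, with 19 for H2A, 17 for H2B, 12 for H3 and 12 for H4. They include 2 annotated pseudogenes, both counted under H2A. Of the 60, 50 lay in the large cluster on chromosome 13 (Hist1) and 10 in the cluster on chromosome 3 (Hist2). The linker histone H1 genes and the few genes of the Hist3 and Hist4 clusters have other symbols and were not members.

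Most messenger RNAs end in a poly(A) tail. Messages of replication-dependent histone genes end instead in a short conserved stem-loop, which is bound by the stem-loop binding protein Slbp and is cut free by a complex that includes the U7 small nuclear RNA and the endonuclease Cpsf3. Their transcription is switched on in S phase through the activator Npat, and the messages are destroyed when DNA synthesis stops. Some members are also known to be made as longer, polyadenylated messages in differentiated cells, and libraries that start from poly(A) RNA capture these and largely miss the others. The study's methods name both a poly(A) isolation module and RNA depleted of ribosomal RNA, whereas the sample labels name depletion alone, so which RNA was sequenced is not settled by these sources.

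The stem-loop was searched in the annotated transcripts (GENCODE M21, build GRCm38) as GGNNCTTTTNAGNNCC with both arms fully paired, on the transcript strand only. It was found in 37 of the 60 members and in 49 of 21951 protein-coding genes searched (0.223%), members included. Another 14 members had no annotated 3′ UTR, and H2ac10 and H2ac12 had only 1 and 2 bases of it. A loop beyond the annotated end could not be seen in any of these. The members held 6 versions of the 16 bases. The most common, shared by 21 members of the H2A, H2B and H3 classes, is shown for H2bc8. The versions of H4c8 (6 members), H2bc12 (5 members), H4c9 (2 members), H4c2 (2 members) and H2ac20 (1 member) are shown beside it. Capitals mark the stem-loop, and the lower-case bases are its flanks in the 3′ UTR.
H2bc8, chr13:23571838-23571863 (+): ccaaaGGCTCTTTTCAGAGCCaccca
H4c8, chr13:23531453-23531478 (+): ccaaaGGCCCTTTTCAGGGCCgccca
H2bc12, chr13:22036295-22036320 (+): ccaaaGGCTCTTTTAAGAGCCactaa
H4c9, chr13:22040961-22040986 (-): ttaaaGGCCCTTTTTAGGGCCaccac
H4c2, chr13:23757361-23757386 (+): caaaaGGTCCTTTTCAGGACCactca
H2ac20, chr3:96220413-96220438 (-): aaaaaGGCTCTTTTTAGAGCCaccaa

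A polyadenylation signal was searched as AATAAA or ATTAAA within the last 50 bases of each annotated transcript. It was found in 12 of the 60 members and in 80.7% of the protein-coding genes. The 14 members without an annotated 3′ UTR held 0 such signals, and for these the search could not reach past the annotated end. The signal is shown in capitals for 3 of the 12 members. These 12 took 37.6% of the members' reads. H2bc4, the member with the most reads, held neither the signal nor the stem-loop in its only annotated transcript, which is spliced. Bases of the gene outside that transcript were not searched. The transcript of H4c9 ran on for 330 bases past the stem-loop printed above and ended 21 bases from the start of its signal. That of H2bc21 was 2620 bases long and held no stem-loop.
H4c9, chr13:22040636-22040664 (-): ctgtttacATTAAAagtattctatgctaa
H2bc21, chr3:96223709-96223738 (+): ttattattAATAAAgttaccgattagtttc
H2bc23, chr13:21807282-21807311 (-): gaatattaAATAAAtttgtttcttctcctg

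Replication-dependent histone messages were scarce in all 6 libraries. Together the 60 genes took 3704 of 117514000 counted reads. Their summed level, in CPM (reads scaled to each library's total), was 32.7, 26.5 and 39.4 in the sensitive libraries and 17.6, 35.5 and 37.3 in the resistant libraries. The lowest library was resistant and the highest sensitive, and the groups overlapped. Of the 60 members, 16 had no read in any library, 24 had 1 to 9 reads over all libraries, 14 had 10 to 99 and 6 had 100 or more. A count of 0 over all libraries allows a level of up to 0.0255 CPM (3 counts of the summed total), a limit for counting error only. The genes without a read included H2ac1 and H2bc1, the testis H2A and H2B genes of the chromosome 13 cluster.

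A single gene, H2bc4 (Hist1h2bc, chr13:23684199-23692908), held 47.4% of the members' reads and was the most abundant member in each of the 6 libraries. It had 262, 216 and 432 counts in the sensitive libraries and 175, 314 and 356 in the resistant libraries. H4c9 (Hist1h4i) had 112, 65 and 89 counts in the sensitive libraries and 40, 123 and 92 in the resistant libraries. H2bc21 (Hist2h2be), of the chromosome 3 cluster, had 82, 29 and 115 counts in the sensitive and 58, 79 and 102 in the resistant libraries. The groups overlapped for all 3 genes, which together took 74.0% of the members' reads. By mean FPKM, which sets the count against gene length, 3858 listed genes stood above H2bc4, and 7 members reached 1 FPKM or more.

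**Figure D1:**
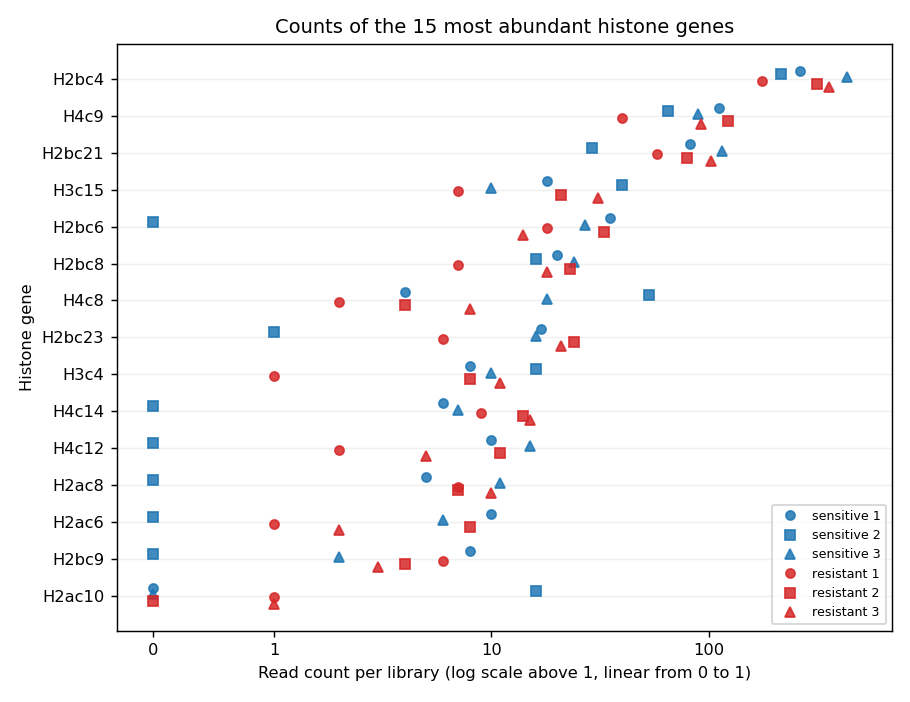
Read counts (horizontal axis, logarithmic above 1 and linear from 0 to 1) of the 15 members with the highest mean CPM (rows), with a point for each library, blue for sensitive and red for resistant, and the marker shape giving the replicate. Blue and red points are mixed in nearly every row, and sensitive replicate 2 (blue squares) lies at 0 for 6 of these genes and is the highest library for H3c15, H4c8, H3c4 and H2ac10.

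The classes were far from equal in reads, although a nucleosome holds equal numbers of the core histones. H2B genes took 70.7% of the members' reads, H4 genes 20.2%, H3 genes 6.45% and H2A genes 2.65%. Summed H2B levels were 22.3, 14.9 and 30.3 CPM in the sensitive and 13.7, 24.7 and 27.2 CPM in the resistant libraries. Summed H2A levels were 0.815, 0.909 and 1.07 CPM in the sensitive and 0.579, 0.860 and 0.780 CPM in the resistant libraries. Of the 19 H2A members, 10 had no read, the 2 pseudogenes among them. The highest H2A member, H2ac8 (Hist1h2ae), had 5, 0 and 11 counts in the sensitive and 7, 7 and 10 in the resistant libraries.

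All 19 H2A members shared exon bases with another annotated gene, against 2 of 17 H2B, 2 of 12 H3 and 1 of 12 H4 members. For 18 of the 19 the other genes included a microRNA model, and for H2ac21 the other gene was an antisense gene. H2ac18 and H2ac19 also shared exon bases with antisense genes, which had 184 and 371 counts over all libraries. Counters can discard reads that fall on more than a single gene, and the setting used is not given in the sources. The microRNA models were not among the 60832 listed genes, so no counts of them could be seen here. The part of this overlap in the low H2A counts was not tested.

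Many members also have near-identical copies. For each member, the share of its read-length windows that also occurred in the transcripts of another gene was computed. The median share was 69.3% for the 16 members without a read and 41.7% for the 24 with 1 to 9 reads. It was 40.3% for the 14 with 10 to 99 and 20.1% for the 6 with 100 or more. In the same order the shares spanned 0 to 100%, 0 to 92.6%, 0 to 94.8% and 0 to 61.5%. The median exon length was 393, 514, 617 and 1088 bases, and its part in these shares was not tested. H3c14 and H2ac19, both without a read, had every window in common with another gene. H3c15 (Hist2h3c2), the highest H3 member, shared 61.5% and H2bc23 (Hist1h2bq) 94.8%, so the split of reads between these genes and their copies is uncertain. How reads with several places were counted is not given in the sources, and its effect was not tested.

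The reads lay almost wholly on genes with an annotated 3′ UTR that ran well past the stem-loop or did not hold it. Most of them, 74.0% of the members' reads, lay on 3 such genes, H2bc4, H4c9 and H2bc21. In 22 members the longest annotated tail ended at most 100 bases past the stem-loop. These 22 took 4.94% of the members' reads, and none of them had 10 counts in 3 libraries. In 15 members, H4c9, H3c15, H2bc6 and H2bc8 among them, the annotation ran on for more than 100 bases. They took 29.8% of the reads, and 5 had 10 counts in at least 3 libraries. Another 9 members, which include H2bc4, H2bc21 and H2bc23, had an annotated 3′ UTR without the stem-loop, and took 63.3%. The remaining 14 had no annotated 3′ UTR, and these took 1.89%. Of them, 2 were pseudogenes without a coding sequence, and in the others the annotation stopped at the coding end.

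All 6 members with 100 or more reads fell among these 24 members, that is, the 15 annotated far past the stem-loop and the 9 with a 3′ UTR that did not hold it. The 9 include H2ac10 and H2ac12, whose annotated 3′ UTRs were only 1 and 2 bases long. The other 36 shared 253 reads. Without sensitive replicate 2, which stood apart from the other libraries, the share of the 36 was 5.72% in place of 6.83%, 44 members still had a read, and members with 100 or more reads went from 6 to 4. Longer models can collect more reads. The median exon length was 1138 bases for the 15 members annotated far past the stem-loop. For the 9 with a 3′ UTR without it the median was 539. It was 484 for the 22 that ended near it and 387 for the 14 without an annotated 3′ UTR. The median member level per length was 0.117, 0.060, 0 and 0 FPKM in the same order, all medians of genes with few or no reads. The part of gene length in the shares was not tested. The annotated ends were not checked against read coverage, which was not analysed here.

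**Figure D2:**
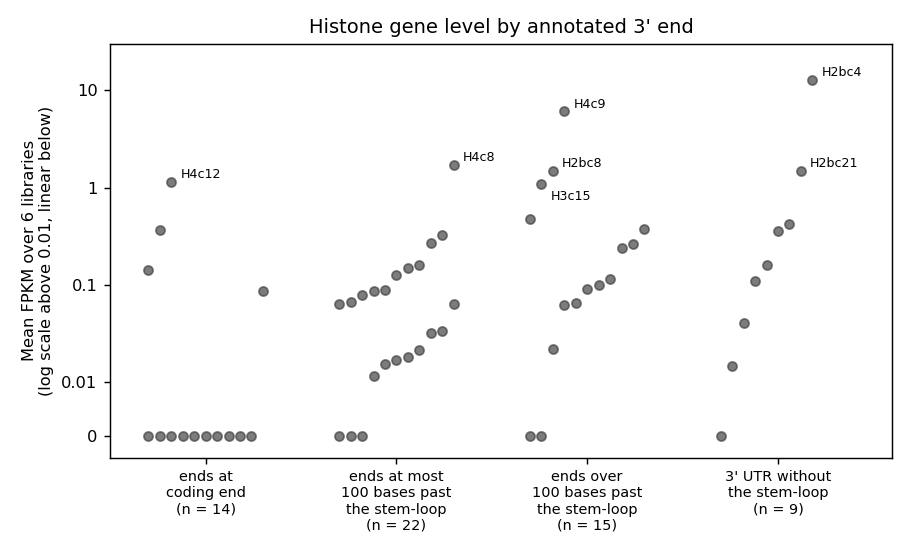
Mean FPKM over the 6 libraries (vertical axis, logarithmic above 0.01 and linear below) of each of the 60 members (points), set out by the annotated 3′ end of the gene. Of the 7 members at 1 FPKM or more, which are named, 5 stand in the 2 sets on the right. In these the annotated 3′ UTR runs far past the stem-loop or does not hold it. At the left, 10 of the 14 members annotated to the coding end or as pseudogenes lie at 0.

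Among the other RNAs that lack or need no poly(A) tail, 13 small RNAs of a fixed list that the table held summed to between 0 and 0.303 CPM in each library. The long nuclear RNAs of that list were abundant, Malat1 at 494 to 909 CPM and Neat1 at 596 to 915 CPM. Both are known to be captured by poly(A) selection at least in part. Whether RNA selection, library size selection or the cells' own content set the low histone counts was not tested.

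Replication-independent histone genes, most of which are transcribed also outside S phase and polyadenylated, were far more abundant. Over the 12 H3 members the summed level was 2.59, 5.03 and 1.35 FPKM in the sensitive and 0.660, 2.36 and 2.72 FPKM in the resistant libraries. H3f3a and H3f3b, which encode the variant H3.3, summed to 406, 366 and 393 FPKM in the sensitive and 345, 316 and 261 FPKM in the resistant libraries. The ratio of the variant to the members was thus between 72.7 and 523. For H2A the corresponding ratio, with 6 variant genes that include H2az1 and H2aj, was between 105 and 215. Another of the 6, H2ax, held the stem-loop in its annotated 3′ UTR as well as a polyadenylation signal near its end.

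Proliferation genes were readily detected in the same libraries. The 40 genes of an S phase list all had reads and summed to 861, 693 and 626 CPM in the sensitive and 829, 779 and 769 CPM in the resistant libraries. The 24 genes of a G2/M list summed to 299, 257 and 106 CPM in the sensitive and 305, 257 and 181 CPM in the resistant libraries. The order of the libraries differed between these lists and the histone genes. Resistant replicate 1 had the lowest histone sum and the highest G2/M sum, and sensitive replicate 3 had the highest histone sum and the lowest S phase and G2/M sums.

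Slbp, the stem-loop binding protein, was at 32.5, 21.4 and 29.7 CPM in the sensitive and 34.2, 30.5 and 33.8 CPM in the resistant libraries. Npat, the activator of histone transcription, was at 26.4, 4.77 and 28.9 CPM in the sensitive and 23.4, 24.0 and 27.0 CPM in the resistant libraries. The single low value was again that of sensitive replicate 2. The 19 genes of a histone processing list, to which both belong, summed to between 885 and 1048 CPM.

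**Figure D3:**
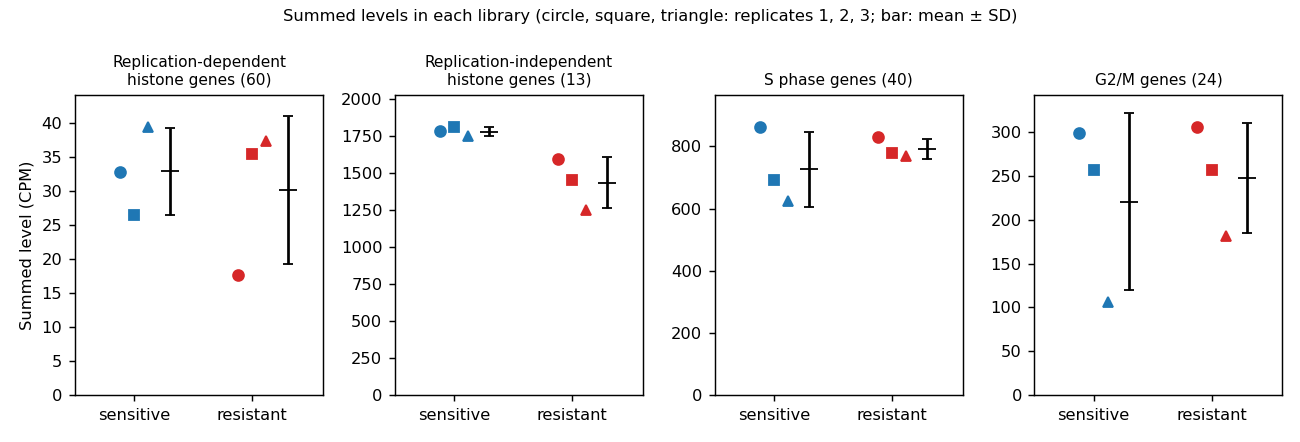
Summed CPM (vertical axes, each from 0) of the 60 members and of 3 comparison lists in each library, with circles, squares and triangles for replicates 1, 2 and 3 and black bars for the group mean ± SD (n = 3). The members sum to 17.6 to 39.4 CPM with both groups overlapping, whereas the replication-independent genes lie between 1750 and 1806 CPM in the sensitive and between 1249 and 1595 CPM in the resistant libraries.

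Sensitive replicate 2 stood apart in the histone genes as in the whole table. Only 10 members had a read there, against 25 to 32 in the other 5 libraries, and it had the fewest genes with a read (21792 against 23275 to 25970). H2bc6 (Hist1h2be) had 35, 0 and 27 counts in the sensitive and 18, 33 and 14 in the resistant libraries. H4c8 (Hist1h4h) went the other way, with 4, 53 and 18 counts in the sensitive and 2, 4 and 8 in the resistant libraries. H2ac10 had 16 counts in sensitive replicate 2 and at most 1 in any other library. Of the 20 members with at least 10 reads in all, 7 (35.0%) were at 0 in sensitive replicate 2 and above 0 in every other library. Among all 25074 genes with at least 10 reads the share was 10.8%, and it was 0.327% to 0.993% for the other libraries taken in turn. The members were not matched to those genes for level.

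Marker lists of other cell types go in part against the label of the cells. The paper reports high purity of the isolated cells for CD146 by flow cytometry, a check of protein and not of RNA. Macrophage markers summed to 25883 to 38594 CPM over the 6 libraries, pan-endothelial markers to 84.5 to 553 CPM and LSEC markers to 2709 to 7296 CPM, and several of the LSEC markers are also made by macrophages. Neutrophil markers summed to 7997 CPM in sensitive replicate 2 and to 405 to 6341 CPM elsewhere. Of 10 hepatocyte markers, Hp stood at 1848 CPM in that library and at 64.1 to 544 CPM elsewhere, whereas the list's median was 1.31 FPKM there, within the 1.03 to 5.39 FPKM of the others. In bulk RNA, fewer cells of a type and less RNA per cell cannot be told apart. The part of these cells in the histone levels was not tested.

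The comparison of resistant with sensitive LSECs asked which genes differ between the labelled groups, whether through resistance or through the dosing that led to it. No replication-dependent histone gene passed the test. With edgeR's quasi-likelihood test and Benjamini-Hochberg adjustment over 15474 genes, 0 genes (0%) had an adjusted p under 0.05, and 476 (3.08%) had an unadjusted p under 0.05. Over the same genes, DESeq2 called 24, none of them a member, and limma-voom 0. The filter on low counts let 8 members into the test. Of these, 0 had an unadjusted p under 0.05, 3 had a higher and 5 a lower fitted level in the resistant group, and their median log2 difference was -0.15, beside 0.01 over all genes tested. The groups did not overlap in CPM for 0 of the 8 members and for 1299 of the genes tested (8.39%).

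The member with the smallest p was H2bc23, with 17, 1 and 16 counts in the sensitive and 6, 24 and 21 in the resistant libraries. Its log2 difference, resistant minus sensitive, was 0.60 ± 0.96 (standard error, n = 3 against 3 libraries; edgeR's quasi-likelihood test, adjusted p = 0.940). H2bc8 (Hist1h2bg) had 20, 16 and 24 counts against 7, 23 and 18, a log2 difference of -0.39 ± 0.64. H3c15 had 18, 40 and 10 counts against 7, 21 and 31, a log2 difference of -0.39 ± 0.85.

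The 3 abundant members were measured more closely. H2bc4 differed by -0.17 ± 0.38, H4c9 by -0.12 ± 0.49 and H2bc21 by 0.06 ± 0.50 on the log2 scale. H2bc6 differed by 0.09 ± 1.13 and H4c12 (Hist1h4k), with 10, 0 and 15 counts against 2, 11 and 5, by -0.44 ± 1.20. All 8 differences were smaller than their standard errors. The adjusted p of the 8 lay between 0.940 and 0.989 by edgeR's quasi-likelihood test.

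**Figure D4:**
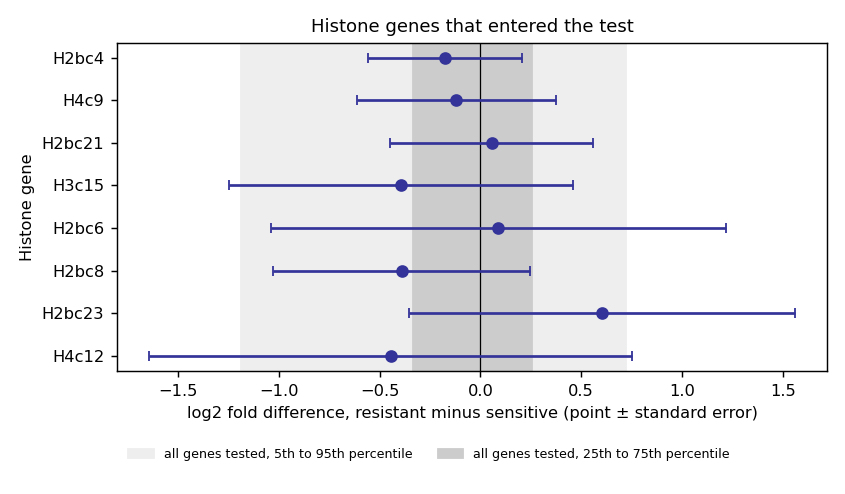
Log2 fold difference, resistant minus sensitive (horizontal axis, point ± standard error from edgeR, n = 3 against 3), of the 8 histone genes that entered the test (rows), over grey bands for all 15474 genes tested. Every error bar crosses 0, and the points lie from -0.44 to 0.60, within the 5th to 95th percentile of all genes (-1.18 to 0.72).

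Members below the filter gave no firmer difference. H4c14 (Hist2h4) had 6, 0 and 7 counts in the sensitive and 9, 14 and 15 in the resistant libraries, so that the groups did not overlap in CPM. Without the filter its log2 difference was 1.56 ± 1.27, with an adjusted p of 0.742 by edgeR's quasi-likelihood test. In that fit 1189 of 31352 genes (3.79%) and 1 of 39 members had an unadjusted p under 0.05. The member was H4c8 (log2 difference -2.48 ± 1.07, edgeR's unadjusted p = 0.0372, adjusted p = 0.676), and 53 of its 89 reads were in sensitive replicate 2.

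Summed over all members, the level was 32.9 ± 6.41 CPM in the sensitive and 30.2 ± 10.9 CPM in the resistant group (SD, n = 3), a log2 ratio of -0.12. H2B genes summed to 22.5 ± 7.71 against 21.8 ± 7.21 CPM and H3 genes to 2.45 ± 1.43 against 1.73 ± 1.04 CPM. H4 genes summed to 7.59, 6.70 and 6.71 CPM in the sensitive and 2.80, 7.94 and 6.76 CPM in the resistant libraries. The chromosome 13 cluster summed to 27.6 ± 5.17 against 24.5 ± 9.07 CPM and the chromosome 3 cluster to 5.25 ± 1.26 against 5.69 ± 2.04 CPM. Each of these differences was smaller than the SD within at least 1 of its groups. The H2A sum differed by more than both SDs, at 0.931 ± 0.129 against 0.740 ± 0.145 CPM over 98 reads in all, but not on the FPKM scale, at 1.43 ± 0.806 against 0.968 ± 0.111. The groups overlapped in every class and cluster.

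Most endothelial and neutrophil markers had lower fitted levels in the resistant group. Of 16 pan-endothelial markers 15 were lower (median log2 difference -1.14), 5 with an unadjusted p under 0.05 by edgeR's test. The pan-endothelial sum was lowest in resistant replicate 2, at 84.5 CPM against 457 and 458 CPM in the other resistant libraries. All 14 neutrophil markers were lower (median -1.72), 2 with such a p. Of 18 LSEC markers 13 were lower (median -0.35), 1 with such a p. Their summed level was 4690 ± 1896 CPM in the sensitive and 5609 ± 1474 CPM in the resistant group (SD, n = 3). Of all genes tested, 3.08% had such a p. None of these markers passed the adjusted threshold of edgeR's test. Their part in the comparison of the histone genes was not tested.

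Genes of the same pathway gave no adjusted call either. The 12 replication-independent histone genes in the test had 3 higher and 9 lower fitted levels in the resistant group (median log2 difference -0.32). Of the 12, 1 had an unadjusted p under 0.05 by edgeR's test, beside 3.08% of all genes tested. The groups did not overlap for 3 of the 12, beside 8.39% of all genes tested. The gene with that unadjusted p was the linker histone H1f0. It was at 139 CPM in the sensitive and 88.0 CPM in the resistant group on average (log2 difference -0.73 ± 0.21, adjusted p = 0.940 by edgeR's quasi-likelihood test). H3f3b was at 801 and 607 CPM (-0.47 ± 0.22) and H3f3a at 417 and 362 CPM (-0.27 ± 0.18). Of 19 histone processing genes 13 were higher and 6 lower, with Slbp at 0.19 ± 0.20 and Npat at 0.30 ± 0.55 on the log2 scale. The medians of 19 histone chaperone genes (0.02), 40 S phase genes (0.06) and 24 G2/M genes (0.25) came with 0 unadjusted p under 0.05 in each list. Mki67 and Top2a, of the G2/M list, differed by -0.40 ± 0.50 and -0.08 ± 0.48.

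H1f2 (Hist1h1c), a linker histone gene of the chromosome 13 cluster that is no member, was the most abundant of the cluster's S phase histone genes. It is, with H2bc4 and H2bc21, on a list of histone genes known also as polyadenylated messages. H1f2 had 1421, 809 and 1743 counts in the sensitive and 826, 2012 and 1353 in the resistant libraries, and its annotated transcript ran on for 840 bases past its stem-loop. Without the listed genes H2bc4 and H2bc21, the other 58 members summed to 15.2, 12.6 and 12.7 CPM in the sensitive and 6.37, 15.6 and 13.5 CPM in the resistant libraries.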

How the data were processed

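RNA-seq libraries of 3 sensitive and 3 resistant LSEC cultures were grouped by their titles. The authors deposited whole-number counts per gene, made with HISAT2 2.0.5 and featureCounts 1.5.0-p3 per the submitters' processing notes, and FPKM values, which the authors computed from those counts. A further table of the authors' own comparison (fold changes and p-values from DESeq2) was not used. The notes list build mm9, but the gene length implied by FPKM and count equalled the exon length of GENCODE M21 (GRCm38), within 0.5 bases, for 98.1% of 28068 genes. Coordinates are therefore of GRCm38, matched by Ensembl identifier. Replicates of a group were not copies of 1 library.

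Total counts were between 17599326 and 20726684. Genes were kept by filterByExpr, scaled by TMM and compared with edgeR 4.0.16 (R 4.3.3) by the robust quasi-likelihood test, two-sided, without covariates, with Benjamini-Hochberg adjustment over all genes tested and a threshold of 0.05. Standard errors are those implied by the F statistic. CPM were computed on library totals. Reads carried no molecular identifiers, so limits from counts cover counting error only. Alternatives were other size factors, DESeq2 1.42.0, limma-voom (limma 3.58.1), other filters, log2(FPKM + 1), a fit with the replicate number as a block and fits without each library in turn.

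The members and lists were chosen with earlier results of these data known. Named were the 15 members with the highest mean CPM, up to 3 higher and 3 lower with the smallest p, members of the polyadenylated and testis lists and the highest of each class and cluster. Of other lists, at most the 3 genes with the highest mean CPM, Slbp, Npat, Mki67 and Top2a were named. Other genes, H1f0, H3c14, H2ac12, H2ac18, H2ac19, H2ac20, H2ac21, H2bc12, H4c2, H2ax, H2az1 and H2aj, were chosen after their values or sequences were seen. The grouping by annotated 3′ end was also made after the data were seen.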

Additional observations from a re-analysis of the deposited data

How the results depend on the processing

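No member passed an adjusted p of 0.05 under any alternative run. There were 3 members in the fit when every library needed at least 10 counts and 39 with no filter. Over all genes, DESeq2's Wald test called 24 genes, none of them a member, where edgeR called 0. The labels do not say what equal replicate numbers share, and deviations of same-numbered libraries correlated at 0.02, 0.07 and 0.28. With the replicate number as a block, edgeR called 0 genes and 0 members, and the median log2 difference of the 8 members was -0.24.

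The direction of single members rested on single libraries. Of 115 values of the 8 tested members under alternatives, 102 kept their direction, and the other 13 all came from leaving out 1 library. Over these left-out libraries the log2 difference lay between -0.39 and 0.12 for H2bc4, between -0.50 and 0.26 for H4c9, between -0.27 and 0.45 for H2bc21, between -0.88 and 0.54 for H3c15, between -0.49 and 0.67 for H2bc6, between -0.76 and 0.0022 for H2bc8 and between -1.22 and 0.27 for H4c12. H2bc23 stayed between 0.09 and 1.04. The log2 ratio of the summed levels lay between -0.31 and 0.15, and was 0.15 without resistant replicate 1. On summed FPKM, chosen after the data were seen, it was -0.24. With 3704 reads over 60 genes, counts limit the precision, and most members could not be tested.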
